A study of Mus musculus with 44 samples.

Results

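Described here are 8 genes of zinc handling, out of 35249 genes in a table of read counts from 44 mouse livers. They are the metallothioneins Mt1 and Mt2, the metal importers Slc39a14, Slc39a4 and Slc39a8, the metal exporters Slc30a1 and Slc30a10, and the zinc-sensing transcription factor Mtf1. The set was picked by name with these libraries already seen. It was chosen on the level of Mt1 and Mt2 in knockout livers on the control diet, which lay among the largest differences from wild type there. The differences between genotypes on the control diet are therefore a description without a test for all 8 genes, and so is every comparison of Mt1 or Mt2 that uses a control-diet library. The same holds for Slc39a14 in the knockouts against their control diet, and for every difference between genotypes in a member's change from the control diet. All 8 genes passed the filter on low counts, as did 14862 genes in all.

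The livers came from wild-type mice (WT), from mice lacking Ripk3 (Ripk3KO, Ripk3-/-) and from mice lacking Mlkl (MlklKO, Mlkl-/-). RIPK3 is a kinase that activates MLKL, the protein that breaks the plasma membrane in necroptosis, so that this form of inflammatory cell death is blocked in both knockouts. Mice entered the study at 2 months of age and ate normal chow (the control diet) or 1 of 2 choline-deficient diets for 6 months, low in fat (CD-LFD) or high in fat (CD-HFD), and the study asked how the liver's gene expression differed between these groups in a setting of diet-driven liver cancer. WT had 6 livers on each diet. Ripk3KO had 6 on control, 3 on CD-LFD and 4 on CD-HFD, and MlklKO had 6, 4 and 3. The labels give each deletion as the genotype of the mouse and name no strain, sex, litter or collection time, and each library is labelled as its own sample, so p-values measure the spread between these libraries only.

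Metallothioneins are small proteins rich in cysteine that bind zinc, copper and cadmium and act as the cell's zinc buffer. In liver they are among the most inducible genes known: zinc, glucocorticoids and inflammatory cytokines all raise them, and a rise in hepatic metallothionein together with the importer Slc39a14 (ZIP14) draws zinc out of the blood during the acute phase response. Proteins of the Slc39 family move zinc, and in some cases manganese and iron, into the cytosol, while proteins of the Slc30 family move metal out of it. Mtf1 senses free zinc and binds metal response elements in the promoters of the metallothionein genes and of Slc30a1, whereas Slc30a10 is chiefly a manganese exporter of liver and intestine.

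The promoters of the metallothioneins and of Slc30a10, the 3 members whose levels differed most between groups, are shown so that the metal response elements can be seen. RefSeq windows (GRCm38.p6) were matched for 6 of the 8 members, with 7 windows in all. Slc39a14 and Slc39a4 are named only. Each sequence is the 250 bases before the annotated start, 5′ to 3′ on the gene's strand, and capitals mark the core of the metal response element, TGCACNC or TGCGCNC, searched on both DNA strands. The Mt1 window lies at chr8:94178839-94179088 on the forward strand, the Mt2 window at chr8:94172368-94172617 on the forward strand, and the Slc30a10 window at chr1:185454598-185454847 on the forward strand.
Mt1: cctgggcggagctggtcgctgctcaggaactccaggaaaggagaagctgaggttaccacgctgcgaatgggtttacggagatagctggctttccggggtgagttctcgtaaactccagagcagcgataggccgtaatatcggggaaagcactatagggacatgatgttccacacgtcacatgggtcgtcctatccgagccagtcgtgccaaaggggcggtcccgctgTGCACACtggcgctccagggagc
Mt2: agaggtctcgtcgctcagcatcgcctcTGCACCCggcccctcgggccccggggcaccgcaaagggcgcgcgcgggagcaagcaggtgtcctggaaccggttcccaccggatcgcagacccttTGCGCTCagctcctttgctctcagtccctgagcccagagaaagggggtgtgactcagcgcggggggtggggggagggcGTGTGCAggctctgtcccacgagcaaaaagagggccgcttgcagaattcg
Slc30a10: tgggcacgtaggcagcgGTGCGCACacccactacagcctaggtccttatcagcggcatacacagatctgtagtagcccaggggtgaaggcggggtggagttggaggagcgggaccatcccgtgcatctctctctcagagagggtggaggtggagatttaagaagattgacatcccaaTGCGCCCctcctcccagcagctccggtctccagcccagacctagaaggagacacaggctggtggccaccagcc
The Mt1 window held 1 core, with its first base at -23 from the start. Mt2 held 3, at -223, -128 and, on the reverse strand, at -50. Slc30a10 held 3, of which those at -233 and -232 overlap on opposite strands and the third lies at -73. One copy or more was found in 21.41% of 32851 such windows, and 3 or more in 1.263%. Among the other members, Slc30a1 held 1 core on the reverse strand at -43, 1 of the 2 windows of Slc39a8 held 1 at -19, and Mtf1 held none, which says only that these letters are not in that window.

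The metallothionein genes have several annotated starts, and the stretch between the first and the last was searched in the same way, since it lies upstream of the later starts. In GENCODE M21 the 159 bases between the outermost Mt1 starts held 4 cores, a number reached in the first 159 bases of 0.06645% of 58690 coding transcripts. They are shown with the bases on either side to let the spacing of the set be read, in order from the first start.
Mt1 at 150 bases before the last start: gctcTGCACTCcgcc
Mt1 at 132 bases before it: aaagTGCGCTCggct
Mt1 at 68 bases before it: tgctGGGTGCAaacc
Mt1 at 54 bases before it: ccttTGCGCCCggac
The 196 bases between the Mt2 starts held 3 cores, against 0.58% of 58625 coding transcripts with as many. A match is a description of the sequence, and no binding was measured here.

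Library totals lay between 2476268 and 12471844 counts in 43 libraries and reached 88204703 in WT CD-LFD replicate 3. Levels below are CPM, counts relative to library size with TMM factors, and levels of different genes are not compared, because transcript length is not taken into account. Ripk3 lay at 0.511 to 4.89 CPM in the 18 WT libraries. It lay at 0 to 0.326 CPM in 12 Ripk3KO libraries and at 1.26 CPM, from 9 counts, in the library labelled Ripk3KO control replicate 5. Mlkl lay at 1.46 to 4.83 CPM in 12 MlklKO libraries, and at 12.5 CPM in that labelled MlklKO CD-HFD replicate 1, where WT livers held 2.28 to 6.15 CPM on control, 9.85 to 14.5 on CD-LFD and 14.3 to 17.7 CPM on CD-HFD. These 2 libraries go against their labels, and the members' count of calls in each kind of comparison is also given without them. Hepatocyte markers were abundant in every library, summing to at least 53079 CPM over 6 genes, and markers of pancreas and fat were near 0, with Prss2, Pnlip, Adipoq and Plin1 at 0 counts in several groups. In bulk liver, fewer cells of a type and less RNA per cell cannot be told apart. Clock genes split the libraries: by the log2 ratio of Arntl to Dbp, 11 libraries lay at -2.63 or above and 33 at -3.60 or below. The 11 were all WT, 4 of 6 on control, 6 of 6 on CD-LFD and 1 of 6 on CD-HFD. No knockout liver was among them, so that on CD-LFD WT and knockout livers differ in clock phase as well as in genotype. On control they differ so in part. Between CD-LFD and CD-HFD, WT livers differ in phase as well as in diet for all but 1 CD-HFD liver.

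On the control diet Mt1 was low in WT livers and high in most knockout livers. The 6 WT livers held 7.32, 10.02, 12.4, 5.84, 18.7 and 13.9 CPM. The 6 Ripk3KO livers held 86.5, 84.0, 1365, 999.7, 1020 and 1304 CPM in replicate order, so replicates 3 to 6 stood at 999.7 CPM or more and replicates 1 and 2 below 100. The MlklKO livers held 2829, 2003, 2588, 2264, 4132 and 24.2 CPM, with replicates 1 to 5 at 2003 CPM or more and replicate 6 near the WT range. All 12 knockout values lay above the highest WT value. The fitted log2 difference from WT was 6.18 (SE 0.73) for Ripk3KO and 7.69 (SE 0.78) for MlklKO.

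Mt2 followed Mt1 library by library. In WT control livers it was at 0 to 6 counts, at or under a floor of 3 counts in 5 of 6 libraries, which gave 0, 0.244, 0.170, 0, 0.913 and 1.47 CPM, so no fold against this group is given. Ripk3KO control livers held 1.55, 1.89, 81.8, 51.7, 53.9 and 48.4 CPM and MlklKO control livers 151, 89.3, 135, 91.0, 208 and 0.447 CPM. The same 4 Ripk3KO and 5 MlklKO libraries were high, and MlklKO replicate 6 lay within the WT range. The 4 include Ripk3KO replicate 5, which goes against its label, and the fitted Ripk3KO differences on the control diet include it as well.

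**Figure D1:**
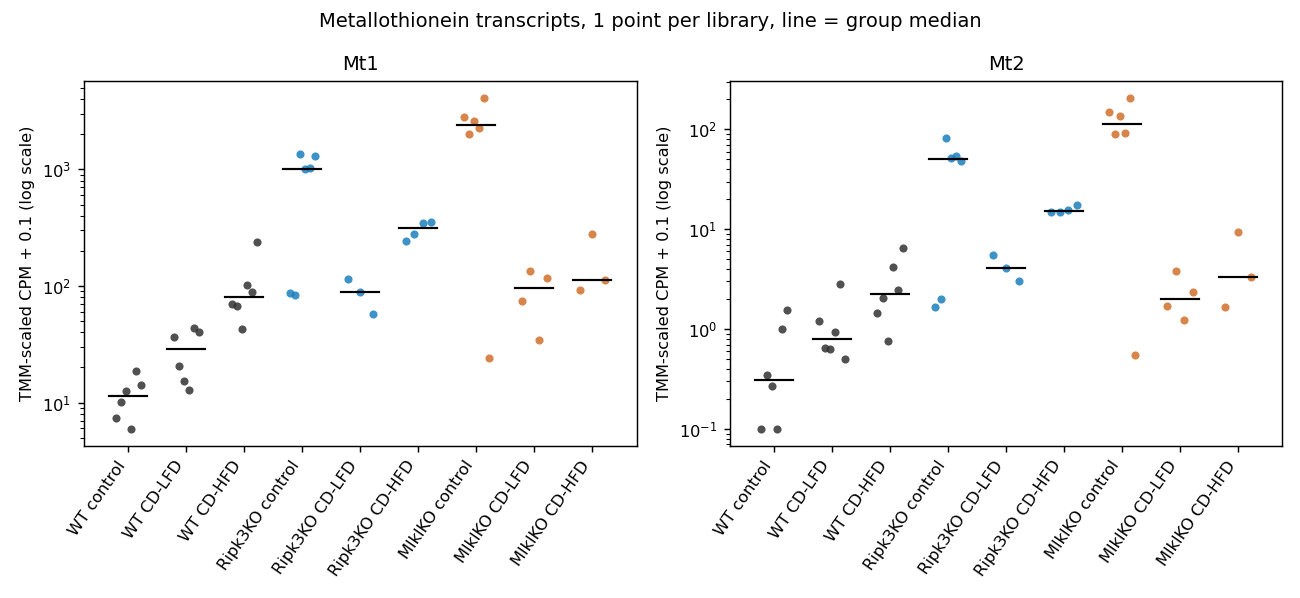
Mt1 (left) and Mt2 (right) in every library, as TMM-scaled CPM plus the offset named on the log axis, by genotype and diet, with a bar at each group's median. The 4 high Ripk3KO and 5 high MlklKO control livers stand at 999.7 CPM or more of Mt1, and MlklKO replicate 6 at 24.2 CPM.

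The importer Slc39a14 (ZIP14), which takes zinc, iron and manganese into hepatocytes, was high in the same libraries. WT control livers held 195, 258, 238, 219.8, 172 and 213 CPM. Ripk3KO control livers held 249, 279, 625, 488, 514 and 637 CPM, again with replicates 3 to 6 above replicates 1 and 2. MlklKO control livers held 1281, 1038, 809, 893, 893 and 351 CPM, with replicate 6 the lowest but still above every WT liver. The fitted log2 difference from WT was 1.11 (SE 0.21) for Ripk3KO and 2.02 (SE 0.22) for MlklKO. Across the 44 libraries the log2 levels of Slc39a14 and Mt1 had a Pearson r of 0.735, and 0.678 after each group's mean was removed. These are descriptions over libraries that share depth and, in part, group.

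The other 5 members showed smaller differences between genotypes on the control diet. Mtf1 ranged over 17.7 to 33.8 CPM in WT, 21.8 to 37.8 in Ripk3KO and 28.3 to 47.0 in MlklKO livers, with log2 differences of 0.21 and 0.45. Slc30a10 ranged over 21.5 to 101, 26.0 to 48.0 and 38.0 to 66.6 CPM. Slc30a1, which carries zinc out across the plasma membrane, ranged over 15.6 to 68.2, 32.8 to 73.4 and 26.4 to 52.8 CPM, and Slc39a8, an importer of zinc, manganese and cadmium, over 10.8 to 34.2, 16.9 to 26.5 and 12.1 to 24.8 CPM. Slc39a4, known as the zinc importer of the intestine, ranged over 15.6 to 73.2, 26.6 to 56.1 and 37.1 to 71.0 CPM, and these ranges overlap for all 5 genes. In Ripk3KO, 2 of the 8 members (Mt1 and Mt2) lay above every WT library, where 0.572% of all genes did. In MlklKO, Mt1 and Slc39a14 did so, where 3.08% of all genes did. The set was picked on this contrast, so nothing is read from these shares.

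The high libraries were also high in acute phase genes, a list fixed with earlier results of these data known. Saa1, the serum amyloid A protein of inflammation, held 12.3 to 43.7 CPM in WT control livers. It held 13.2, 37.9, 2075, 2811, 9103 and 5152 CPM in the Ripk3KO and 1748, 1321, 955, 2811, 4053 and 473 CPM in the MlklKO livers, in replicate order. The summed level of the 16 acute phase genes was 11127 to 21391 CPM in WT. In Ripk3KO it was 18789, 22465, 46699, 46133, 83605 and 69323 CPM and in MlklKO 68571, 48406, 47167, 57550, 70482 and 23417 CPM, so Ripk3KO replicates 1 and 2 and MlklKO replicate 6 were the lowest of their groups here too. Of the 16 genes 15 were called higher in each knockout, with a median log2 difference of 1.54 in Ripk3KO and 1.92 in MlklKO, beside -0.03 and -0.06 over all genes, of which 4.47% and 27.1% were called in either direction. Of 10 glucocorticoid-responsive genes 2 were higher in Ripk3KO, and 3 were higher and 1 lower in MlklKO. Of 8 NRF2 targets, the genes of the oxidative stress response, 1 was higher in Ripk3KO, and 3 were higher and 2 lower in MlklKO. Hepatocyte markers summed to 86707 to 152378 CPM in WT, 99964 to 145109 in Ripk3KO and 99278 to 113456 CPM in MlklKO livers, ranges that overlap. Neutrophil markers, 4 genes, summed to 0.307 to 6.13 CPM in WT, 1.75, 1.05, 6.84, 3.94, 8.38 and 4.09 CPM in Ripk3KO and 11.2, 4.56, 10.9, 11.2, 6.62 and 0.746 CPM in MlklKO livers in replicate order, so the 3 knockout livers low in Mt1 were the lowest of their groups here as well. B cell markers, 3 genes, summed to 0.489 to 7.33, 0.473 to 2.30 and 0.276 to 0.652 CPM. A floor of 3 counts is 0.377 to 0.652 CPM in the MlklKO livers, so their B cell values rest on few reads. Of the 2 tested genes of each list, 1 neutrophil marker was called higher (median log2 difference 1.44) and both B cell markers lower (median -2.77) in MlklKO. In the same livers 1 of 5 stellate cell, 1 of 4 cholangiocyte and 2 of 4 endothelial markers were called higher and 1 endothelial marker lower. No macrophage, T and NK cell or hepatocyte marker was called in MlklKO, and no marker of any of these 8 cell types in Ripk3KO. Whether the acute phase change or any of these cell types has a part in the metallothionein levels was not tested.

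**Figure D2:**
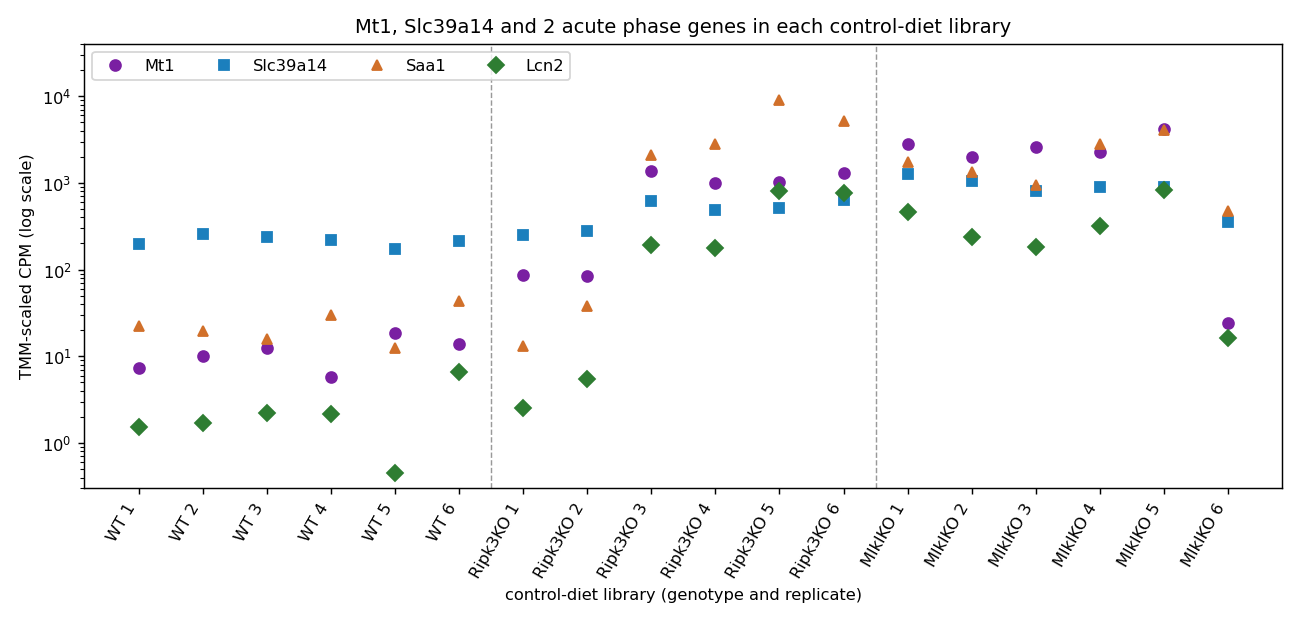
Mt1, Slc39a14 and the acute phase genes Saa1 and Lcn2 in each control-diet library, on a log axis of TMM-scaled CPM, with 1 symbol for each gene and libraries in label order. Ripk3KO replicates 1 and 2 and MlklKO replicate 6 lie below the other knockout livers for all 4 genes.

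The transcript most like Mt1 over the 44 libraries was Mt2, with a Pearson r of log2 CPM of 0.975. It was followed by Lrg1 (0.900), Serpina10 (0.893), Cers6 (0.878), Gm45774 (0.874) and Il1r1 (0.873). With group means removed the same 6 transcripts had r of 0.954, 0.701, 0.783, 0.679, 0.914 and 0.775. Lrg1 encodes a leucine-rich glycoprotein of plasma that is itself an acute phase protein, and Il1r1 the receptor for interleukin-1. Gm45774 is annotated in GENCODE M21 on the strand opposite Mt2, and 432 of the 588 exon bases of Mt2 are shared with it. The sources used here do not say whether counting used the strand. Without that the reads of Gm45774 and those of Mt2 cannot be told apart.

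On the choline-deficient diets the levels of Mt1 were closer together. WT livers on CD-LFD held 36.4, 20.6, 15.1, 12.7, 43.2 and 40.0 CPM and on CD-HFD 70.4, 67.1, 42.9, 102, 89.3 and 237 CPM. Only replicate 3 on CD-HFD lay inside the CD-LFD range. Ripk3KO livers held 115, 87.9 and 56.9 CPM on CD-LFD and 245, 280.4, 350.4 and 355 CPM on CD-HFD, 2 ranges that do not overlap. MlklKO livers held 74.2, 134, 34.5 and 117 CPM on CD-LFD and 91.6, 279 and 113 CPM on CD-HFD, 2 ranges that do. By median the order of the groups ran from WT control (11.2), WT CD-LFD (28.5), WT CD-HFD (79.8), Ripk3KO CD-LFD (87.9), MlklKO CD-LFD (95.4) and MlklKO CD-HFD (113) to Ripk3KO CD-HFD (315), Ripk3KO control (1010) and MlklKO control (2426 CPM). Each neighbouring pair of groups in this order overlapped.

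Between the choline-deficient diets, Mt1 rose from CD-LFD to CD-HFD in WT livers. The log2 difference of CD-HFD from CD-LFD was 1.86 (SE 0.60, adjusted p = 0.0209) in the edgeR quasi-likelihood test, with 5 of 6 CD-HFD livers above every CD-LFD liver. In Ripk3KO it was 1.83 (SE 0.80, adjusted p = 0.157), a similar size in groups of 3 and 4 with a 95% interval of 0.21 to 3.45. In MlklKO it was 0.84 (SE 0.75, adjusted p = 0.448), with an interval of -0.68 to 2.36, and 0.18, adjusted p = 0.904 without MlklKO CD-HFD replicate 2, the highest liver of its group. The WT call was lost without WT CD-LFD replicate 3 (1.73, adjusted p = 0.0569), WT CD-LFD replicate 4 (1.71, adjusted p = 0.0534) or WT CD-HFD replicate 6 (1.41, adjusted p = 0.0955), and with clock phase as a covariate (1.68, adjusted p = 0.271). A fit on the compared groups alone called Mt1 in Ripk3KO (1.85, adjusted p = 0.000539).

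Mt2 had differences of like sign, none of them called in the fit over all groups. WT livers held 1.12, 0.543, 0.528, 0.835, 2.72 and 0.400 CPM on CD-LFD and 1.35, 1.95, 0.655, 4.11, 2.34 and 6.40 CPM on CD-HFD. Ripk3KO livers held 5.42, 4.01 and 2.95 CPM and 14.8, 14.7, 15.5 and 17.2 CPM, and MlklKO livers 1.61, 3.73, 1.12 and 2.23 CPM and 1.57, 9.26 and 3.20 CPM. In Ripk3KO every CD-HFD liver lay above every CD-LFD liver, and in the other genotypes the diets overlapped. The log2 differences were 1.61 (adjusted p = 0.198) in WT, 1.97 (adjusted p = 0.193) in Ripk3KO and 1.16 (adjusted p = 0.429) in MlklKO. Without MlklKO CD-HFD replicate 2 the MlklKO value was 0.19, adjusted p = 0.933. The fit on the compared groups alone called Mt2 in Ripk3KO (2.00, adjusted p = 0.000216).

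Slc30a10, the manganese exporter, fell from CD-LFD to CD-HFD in all 3 genotypes. WT livers went from 37.5, 19.7, 48.7, 30.6, 18.8 and 24.2 CPM on CD-LFD to 2.57, 2.31, 9.16, 2.16, 1.85 and 3.92 CPM on CD-HFD. Ripk3KO livers went from 12.5, 9.70 and 9.44 to 3.50, 2.41, 2.62 and 2.39 CPM, and MlklKO livers from 11.8, 8.79, 18.4 and 5.81 to 2.61, 2.74 and 1.60 CPM. In each genotype the 2 diets did not overlap. The log2 difference was -3.04 (SE 0.33, adjusted p = 4.84e-09) in WT, -1.96 (SE 0.44, adjusted p = 0.00337) in Ripk3KO and -2.27 (SE 0.49, adjusted p = 0.000624) in MlklKO. With clock phase as a covariate the WT value was -1.91 (adjusted p = 2.79e-05), and WT CD-HFD replicate 3, the liver of the less common phase, held 9.16 CPM where the other 5 held 1.85 to 3.92.

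Slc39a8 also fell in WT livers, from a range of 11.3 to 26.5 CPM on CD-LFD to one of 7.95 to 15.1 CPM on CD-HFD, a log2 difference of -0.68 (SE 0.21, adjusted p = 0.0187). This call was lost without WT CD-LFD replicate 3 (-0.53, adjusted p = 0.0842) or WT CD-HFD replicate 6 (-0.59, adjusted p = 0.0581), with scaling by library size alone (-0.45, adjusted p = 0.0893) and with clock phase as a covariate (-0.55, adjusted p = 0.229). Of the 8 members 3 were called in WT, 1 in Ripk3KO and 1 in MlklKO, where 21.1%, 8.83% and 23.7% of all genes were called. Slc39a14, Slc39a4, Slc30a1 and Mtf1 were called in no genotype. Their log2 differences lay between -0.41 and 0.48. The 24 tests gave 5 calls by edgeR and 5 by DESeq2, with 8 at an unadjusted p under 0.05, and without both libraries of doubtful label the members again had 5 calls.

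**Figure D3:**
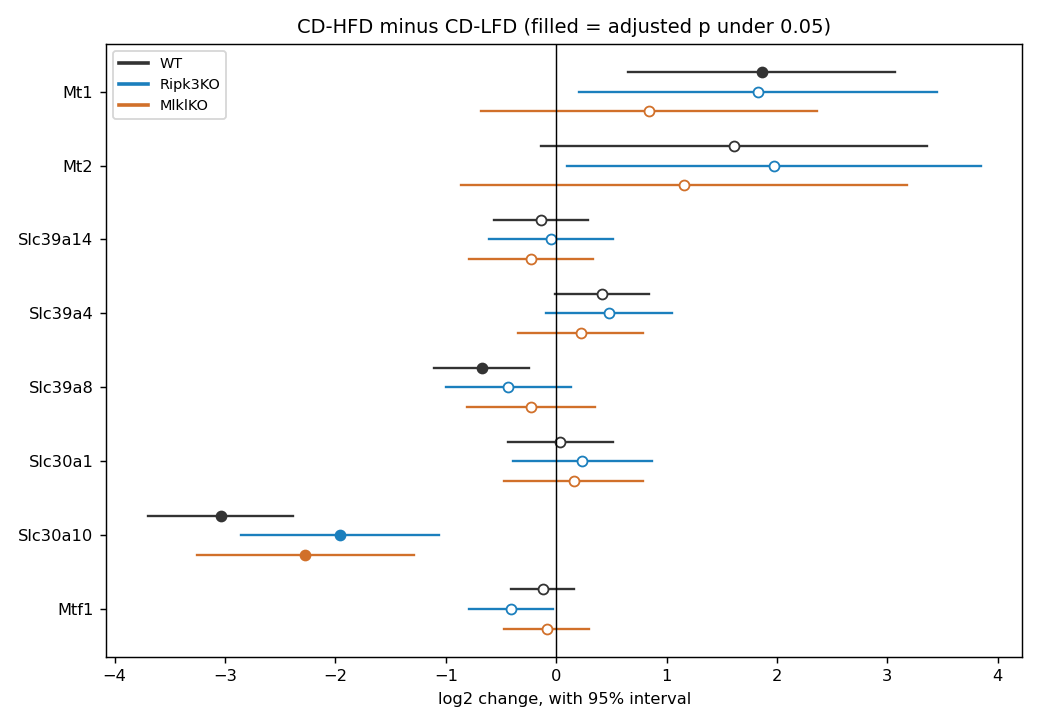
Log2 difference of CD-HFD from CD-LFD for the 8 members in each genotype, with 95% intervals of the edgeR fit; filled points passed an adjusted p of 0.05. Slc30a10 lies below 0 in all 3 genotypes and Mt1 above 0 in all 3, called in WT only.

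Markers of other cell types changed between these diets as well. Macrophage markers summed to 88.7 to 153 CPM in WT CD-LFD and 197 to 317 CPM in WT CD-HFD livers, and 3 of 6 were called higher in each genotype. Hepatocyte markers were called lower in 2 of 6 genes in WT and in Ripk3KO and in 3 of 6 in MlklKO, with sums of 59879 to 103464 and 53079 to 88575 CPM in WT. All 4 cholangiocyte markers, of bile duct cells, were called higher in WT (median log2 difference 1.71) and in MlklKO (2.43) and none in Ripk3KO (1.23). Of 5 stellate cell markers 3 were called higher in WT and in MlklKO and 1 in Ripk3KO. T and NK cell markers summed to 2.37 to 9.24 CPM on CD-LFD and 7.46 to 18.8 CPM on CD-HFD in WT, with 3 of 4 called higher there (median 1.15) and none in Ripk3KO (1.32) or MlklKO (0.94). Both tested neutrophil markers were called higher in MlklKO (median 2.28) and neither in WT (1.02) or Ripk3KO (1.34), with sums of 0.933 to 2.89 and 4.13 to 14.4 CPM in MlklKO. One of 4 endothelial markers was called lower in WT and none in the knockouts, and neither tested B cell marker was called in any genotype. Over all genes 21.1% were called in WT, 8.83% in Ripk3KO and 23.7% in MlklKO, in either direction. The part of these cell types in the levels of the members was not tested.

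Whether the difference between CD-HFD and CD-LFD itself differed between genotypes was tested for all 8 members in both knockouts. None of the 16 interaction tests was called by edgeR, none had an unadjusted p under 0.05, and DESeq2 called none, where 0% of all genes were called. The number was also 0 without both libraries of doubtful label. For Mt1 the diet difference in Ripk3KO minus that in WT was -0.03 with a 95% interval of -1.94 to 1.88. In MlklKO the same value was -1.02 with an interval of -2.97 to 0.93. For Slc30a10 the values were 1.08 (-0.04 to 2.20) and 0.77 (-0.42 to 1.96), intervals that hold both no difference and differences of more than 1 log2 unit.

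Knockout and WT livers on the same choline-deficient diet differed in 1 member, Slc30a10 on CD-LFD. Its WT level of 18.8 to 48.7 CPM lay above all 3 Ripk3KO values (12.5, 9.70 and 9.44) and all 4 MlklKO values (11.8, 8.79, 18.4 and 5.81). The log2 differences were -1.53 (SE 0.39, adjusted p = 0.0382) for Ripk3KO and -1.43 (SE 0.35, adjusted p = 0.0146) for MlklKO. All WT CD-LFD livers and no knockout liver were of the less common clock phase, so genotype and clock phase cannot be told apart on this diet. With clock phase as a covariate the differences were 0.07 and 0.16, a turn of sign. Within WT control livers, where genotype and diet are the same, Slc30a10 held 67.3 to 101 CPM in the 4 livers of the less common phase and 21.5 and 35.7 CPM in the other 2. The Ripk3KO call was lost without any 1 of the 3 Ripk3KO livers (replicates 1, 2 and 3: -1.66, adjusted p = 0.111; -1.48, adjusted p = 0.231; -1.44, adjusted p = 0.178), and without WT CD-LFD replicate 1 (-1.46, adjusted p = 0.0778) or 3 (-1.34, adjusted p = 0.0742). The MlklKO call was lost without MlklKO CD-LFD replicate 2 (-1.33, adjusted p = 0.0762) or 4 (-1.22, adjusted p = 0.0852).

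Mt1 was called against WT in neither knockout on either diet. On CD-LFD the log2 difference from WT was 1.63 (SE 0.69, adjusted p = 0.325) for Ripk3KO, whose 3 livers all lay above the WT range, and 1.69 (SE 0.64, adjusted p = 0.167) for MlklKO, whose 4 livers overlapped it. On CD-HFD it was 1.60 (SE 0.63, adjusted p = 0.376) for Ripk3KO and 0.67 (SE 0.69, adjusted p = 0.755) for MlklKO. The MlklKO value rested on 1 library: without MlklKO CD-HFD replicate 2 it was 0.01, adjusted p = 0.997. The 95% interval of the Ripk3KO difference on CD-HFD was 0.33 to 2.88. Mt2 on CD-HFD was 14.8, 14.7, 15.5 and 17.2 CPM in Ripk3KO livers, all above the WT range of 0.655 to 6.40 CPM, with a log2 difference of 2.45 (SE 0.73, adjusted p = 0.145). Fits on the compared groups alone called Mt1 in Ripk3KO on CD-LFD (1.58, adjusted p = 0.0467), in MlklKO on CD-LFD (1.69, adjusted p = 0.0221) and in Ripk3KO on CD-HFD (1.55, adjusted p = 0.0409), and Mt2 in Ripk3KO on CD-HFD (2.41, adjusted p = 0.00539).

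Of the 8 members 1 was called on CD-LFD in each knockout, where 1.1% of all genes were called in Ripk3KO and 2.56% in MlklKO. On CD-HFD edgeR and DESeq2 called 0 of 8 in both knockouts, where 0.377% and 0% of all genes were called by edgeR. At an unadjusted p under 0.05 there were 3 members in Ripk3KO on CD-HFD (Mt1, Mt2 and Slc30a1) and 0 in MlklKO. Slc39a14, high in most knockout livers on the control diet, held 145 to 247 CPM in WT, 160.5 to 219 in Ripk3KO and 173 to 288 CPM in MlklKO livers on CD-HFD. Without both libraries of doubtful label the members again had 2 calls in the 32 tests.

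Against the control diet the 6 members other than the metallothioneins were tested in each genotype, and the importer Slc39a4 rose on both choline-deficient diets in all 3. WT livers held 58.3, 55.9, 73.2, 40.9, 36.1 and 15.6 CPM on control, 73.4, 85.5, 98.1, 69.6, 63.9 and 49.0 on CD-LFD and 81.7, 98.6, 115, 99.0, 92.5 and 101 CPM on CD-HFD. Ripk3KO livers held 26.6, 38.1, 55.2, 40.8, 53.1 and 56.1, then 82.3, 81.4 and 86.0 and 116, 106, 144 and 98.7 CPM. MlklKO livers held 37.9, 48.9, 71.0, 44.6, 37.1 and 67.9, then 100.1, 84.8, 77.9 and 69.0 and 108, 84.2 and 98.0 CPM. On CD-HFD no liver of any genotype overlapped its control group. The log2 difference of CD-LFD from control was 0.64 (SE 0.22, adjusted p = 0.0228) in WT, 0.89 (adjusted p = 0.00991) in Ripk3KO and 0.69 (adjusted p = 0.0186) in MlklKO. For CD-HFD it was 1.06 (SE 0.22, adjusted p = 8.7e-05) in WT, 1.37 (adjusted p = 6.74e-06) in Ripk3KO and 0.91 (adjusted p = 0.00298) in MlklKO.

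The Slc39a4 rise on CD-LFD was the less firm of these. In WT it was lost without WT control replicate 6 (0.46, adjusted p = 0.0516), WT CD-LFD replicate 2 (0.59, adjusted p = 0.0507) or WT CD-LFD replicate 3 (0.56, adjusted p = 0.05003), with clock phase as a covariate (0.62, adjusted p = 0.0537) and in a fit on the compared groups alone (0.66, adjusted p = 0.129). It was lost in Ripk3KO without CD-LFD replicate 3 (0.86, adjusted p = 0.0562) and in MlklKO without CD-LFD replicate 1 (0.59, adjusted p = 0.0771). Markers of intestinal epithelium, in which Slc39a4 is best known, were summed over the 2 of 3 listed genes that are in the table. In WT livers they held 29.1 to 128 CPM on control, 65.8 to 106 on CD-LFD and 68.4 to 103 CPM on CD-HFD. On control and CD-LFD they held 24.0 to 90.5 and 77.4 to 113 CPM in Ripk3KO and 22.5 to 50.8 and 82.7 to 107 CPM in MlklKO. On CD-HFD 1 of the 2 was called higher in each genotype, where 47.7%, 46.3% and 45.2% of all genes were called in either direction. Their part in the Slc39a4 level was not tested. The transcripts most like Slc39a4 over the 44 libraries were Ly6e (Pearson r of log2 CPM 0.883), Serpinb9 (0.881), Gpc1 (0.866), Atp9a (0.864), Gdf10 (0.862) and Ccnd1 (0.859), as a description over libraries that share diet groups.

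Slc30a10 fell on both diets in all 3 genotypes. Control livers held 78.6, 21.5, 67.3, 35.7, 101 and 67.5 CPM in WT, 26.0, 48.0, 33.7, 41.6, 35.5 and 32.97 in Ripk3KO and 66.6, 58.2, 55.3, 54.1, 62.1 and 38.0 CPM in MlklKO. The CD-LFD and CD-HFD values above lay below these, except in WT on CD-LFD, where the ranges overlapped. The log2 difference of CD-LFD from control was -1.03 (SE 0.29, adjusted p = 0.00672) in WT, -1.79 (adjusted p = 0.00101) in Ripk3KO and -2.31 (adjusted p = 4.58e-06) in MlklKO. For CD-HFD it was -4.07 (SE 0.34, adjusted p = 5.58e-13) in WT, -3.75 (adjusted p = 4.89e-10) in Ripk3KO and -4.59 (adjusted p = 3.45e-10) in MlklKO. These calls held without each single library and under every alternative fit that was run, but the size moved with clock phase in WT. With clock phase as a covariate the WT difference was -3.32 on CD-HFD and -1.41 on CD-LFD, and among livers of the more common phase it was -3.42 on CD-HFD. Hepatocyte markers fell on CD-HFD too, with 6 of 6 called lower in WT and in Ripk3KO and 3 of 6 in MlklKO, where 47.7%, 46.3% and 45.2% of all genes were called in either direction, and a median log2 difference of -0.90 in WT, and their part in the Slc30a10 level was not tested.

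**Figure D4:**
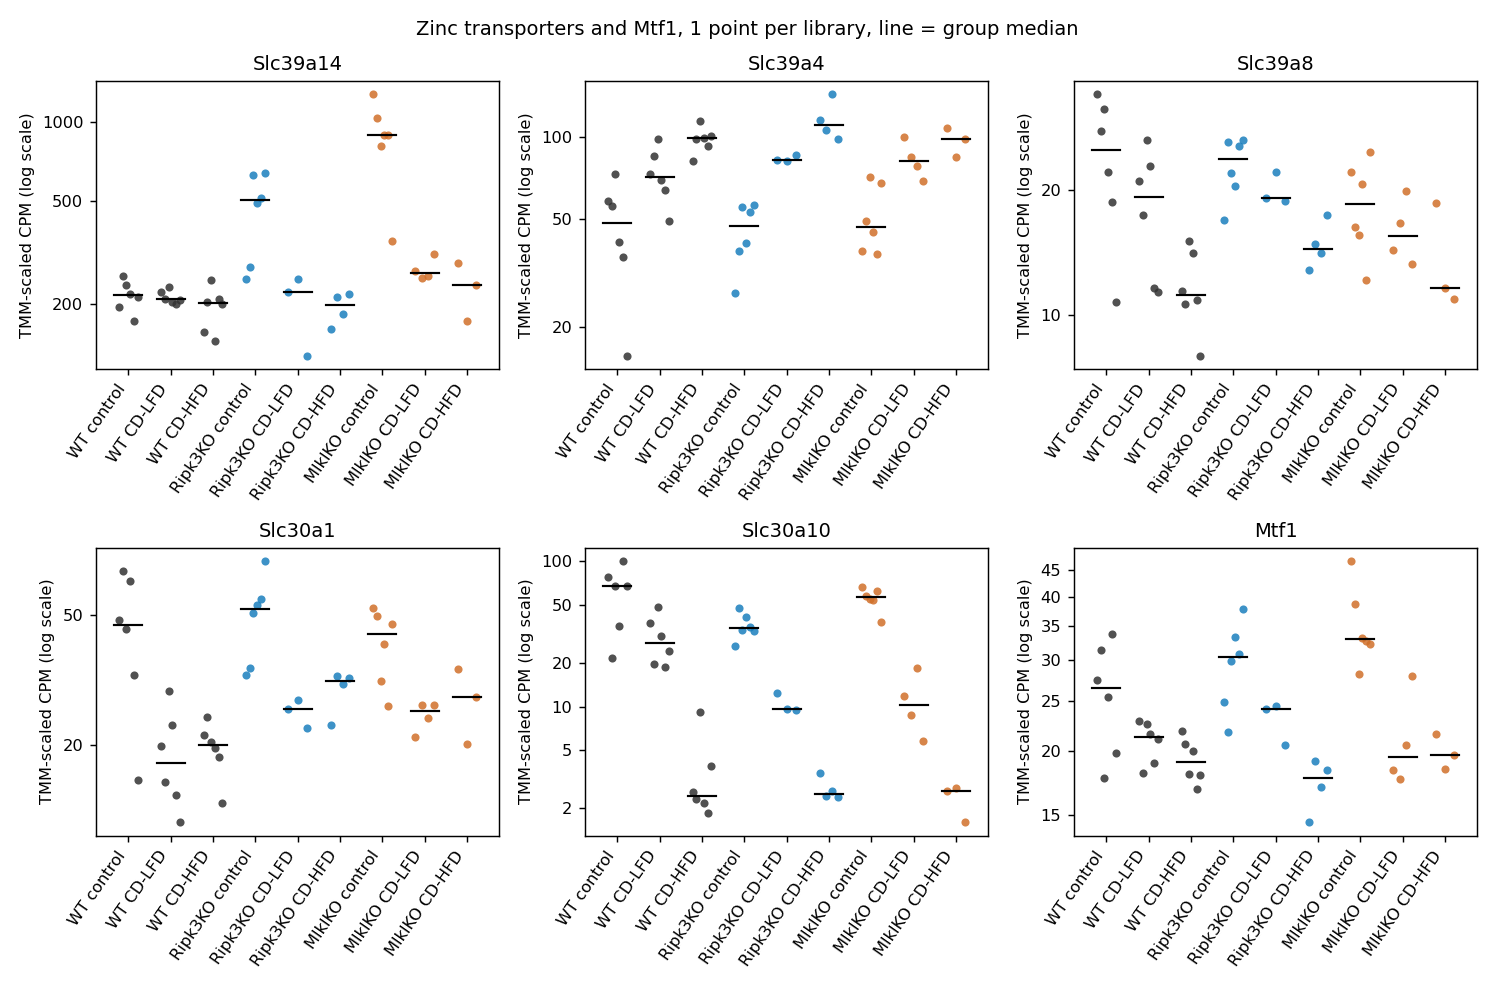
Slc39a14, Slc39a4, Slc39a8, Slc30a1, Slc30a10 and Mtf1 in every library as TMM-scaled CPM on log axes, by genotype and diet, with a bar at each group's median. Slc39a14 exceeds 313 CPM only in knockout livers on control, and Slc39a4 steps up and Slc30a10 steps down from control to CD-HFD in every genotype.

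The zinc exporter Slc30a1, a known target of Mtf1, was called lower in 5 of 6 comparisons with control. WT livers held 15.6 to 68.2 CPM on control (median 46.7), 11.6 to 29.2 on CD-LFD (17.6) and 13.3 to 24.4 CPM on CD-HFD (20.0). The log2 differences on CD-LFD were -1.26 (adjusted p = 0.000109) in WT, -0.995 (adjusted p = 0.0135) in Ripk3KO and -0.75 (adjusted p = 0.0251) in MlklKO. On CD-HFD they were -1.22 (adjusted p = 4.46e-05) in WT, -0.76 (adjusted p = 0.0172) in Ripk3KO and -0.59 (adjusted p = 0.0978) in MlklKO. In Ripk3KO the CD-LFD call was lost without CD-LFD replicate 3 (-0.92, adjusted p = 0.0973), and the CD-HFD call without control replicate 6 (-0.62, adjusted p = 0.0549) or CD-HFD replicate 1 (-0.66, adjusted p = 0.068). Scaling by library size alone also ended both (-0.69, adjusted p = 0.05004 on CD-LFD and -0.23, adjusted p = 0.436 on CD-HFD). In MlklKO the CD-LFD call was lost without control replicates 1 or 2 (-0.67, adjusted p = 0.058 and -0.69, adjusted p = 0.0501) or CD-LFD replicates 1 or 3 (-0.68, adjusted p = 0.0793 and -0.74, adjusted p = 0.0511). Within WT control livers Slc30a1 held 15.6 to 48.2 CPM in the 4 livers of the less common clock phase and 63.6 and 68.2 CPM in the other 2.

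Slc39a14 was lower on both choline-deficient diets than on control in the knockouts, which restates its high level in the control libraries described above and is given without a test. On CD-LFD the log2 difference from control was -1.22 (SE 0.27) in Ripk3KO and -1.69 (SE 0.25) in MlklKO. On CD-HFD it was -1.26 (SE 0.24) and -1.91 (SE 0.28). In WT it was -0.02 (adjusted p = 0.958) on CD-LFD and -0.16 (adjusted p = 0.558) on CD-HFD. Outside the knockout control groups Slc39a14 lay between 127 and 313 CPM in all 32 libraries. Of the 16 acute phase genes, 8 were called lower in Ripk3KO and 10 in MlklKO on CD-LFD, and none higher, whereas in WT 6 were called higher and 1 lower, where 24.1%, 37.9% and 27.7% of all genes were called in either direction. On CD-HFD 11 were called lower in Ripk3KO and 12 in MlklKO, and none higher, whereas in WT 7 were called higher and 6 lower, where 46.3%, 45.2% and 47.7% of all genes were called.

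Slc39a8 was called lower on CD-HFD in WT, with a log2 difference of -1.07 (SE 0.22, adjusted p = 7.83e-05), and in Ripk3KO, with -0.63 (SE 0.24, adjusted p = 0.0301). In MlklKO the difference was -0.44 (adjusted p = 0.178). WT levels were 10.8 to 34.2 CPM on control and 7.95 to 15.1 CPM on CD-HFD, 2 ranges that overlap. The Ripk3KO call was lost without control replicate 2 (-0.59, adjusted p = 0.0525), 5 (-0.59, adjusted p = 0.0528) or 6 (-0.58, adjusted p = 0.055), and without CD-HFD replicate 1 (-0.57, adjusted p = 0.0848), 2 (-0.63, adjusted p = 0.0571) or 3 (-0.60, adjusted p = 0.0684). It was lost with no filter on low counts (-0.61, adjusted p = 0.0579) and with scaling by library size alone (-0.10, adjusted p = 0.73).

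Mtf1 was called lower in 4 of 6 comparisons. On CD-HFD its log2 difference was -0.43 (adjusted p = 0.0142) in WT, -0.79 (adjusted p = 0.000111) in Ripk3KO and -0.83 (adjusted p = 0.000221) in MlklKO, and on CD-LFD it was -0.74 (adjusted p = 0.000484) in MlklKO. Its levels went from a range of 17.7 to 33.8 CPM on control to one of 16.8 to 21.8 CPM on CD-HFD in WT, 2 ranges that overlap, and from a range of 28.3 to 47.0 CPM to one of 18.4 to 21.6 CPM in MlklKO, 2 that do not. The CD-HFD direction depended on the scaling in WT: by library size alone the differences were 0.08, adjusted p = 0.674 in WT, -0.26, adjusted p = 0.167 in Ripk3KO and -0.30, adjusted p = 0.153 in MlklKO. That scaling moved the median of all genes from -0.07 to 0.43 in WT, from -0.05 to 0.49 in Ripk3KO and from -0.04 to 0.49 in MlklKO on CD-HFD. The WT call was also lost without WT control replicate 2 (-0.36, adjusted p = 0.0502), with no filter on low counts (-0.36, adjusted p = 0.119) and in a fit on the compared groups alone (-0.41, adjusted p = 0.0731).

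Counted over the 6 members, 3 were called in WT, 4 in Ripk3KO and 5 in MlklKO on CD-LFD, where 27.7%, 24.1% and 37.9% of all genes were called. On CD-HFD 5, 6 and 4 were called, where 47.7%, 46.3% and 45.2% of all genes were. These counts include Slc39a14 in the knockouts on both diets, from which nothing is read. With Slc39a14 in the knockouts included, the total was 27 calls in 36 tests, and 27 without both libraries of doubtful label.

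Markers of other cell types moved with the diets as well, given here against the same shares of all genes. On CD-HFD all 4 T and NK cell markers were called higher than on control in each genotype, with median log2 differences of 3.18 in WT, 3.09 in Ripk3KO and 3.24 in MlklKO. All 4 cholangiocyte markers were higher as well, with medians of 3.37, 3.52 and 2.60. Of 5 stellate cell markers 3 were called higher in each genotype, with medians of 1.35, 1.52 and 1.49. Both tested B cell markers were called higher in Ripk3KO (median 2.00) and MlklKO (2.92) and neither in WT (0.38). The MlklKO control level of these markers lay near the floor of 3 counts. Of 6 macrophage markers 3 were called higher in each genotype, with 2 lower in WT and 1 in Ripk3KO. Endothelial markers were called lower in 3 of 4 in WT, 2 in Ripk3KO and 1 in MlklKO, and 1 of 2 neutrophil markers was called higher in WT and neither in the knockouts.

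On CD-LFD T and NK cell markers were called higher in 4 of 4 in WT and 3 of 4 in each knockout, with medians of 1.87 in WT, 1.93 in Ripk3KO and 2.48 in MlklKO. Cholangiocyte markers were called higher in 3 of 4 in WT, 4 in Ripk3KO and none in MlklKO, with medians of 1.66, 2.28 and 0.67. Stellate cell markers were called higher in 3 of 5 in WT and in Ripk3KO and 2 in MlklKO. Both B cell markers were higher in each knockout (medians 1.93 and 2.49) and neither was called in WT. In MlklKO the B cell change starts from a control level near the floor of 3 counts. Both neutrophil markers were lower in MlklKO (median -1.85). Hepatocyte markers were called lower in 4 of 6 in WT, 1 in Ripk3KO and 1 in MlklKO, where 1 was higher. Endothelial markers were called lower in 2 of 4 in WT, 1 in Ripk3KO, where 1 was higher, and 3 in MlklKO. Of 6 macrophage markers 1 was higher and 1 lower in WT and in Ripk3KO, and 2 were higher and 1 lower in MlklKO. The part of these cell types in the levels of Slc39a4 and the other members was not tested.

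**Figure D5:**
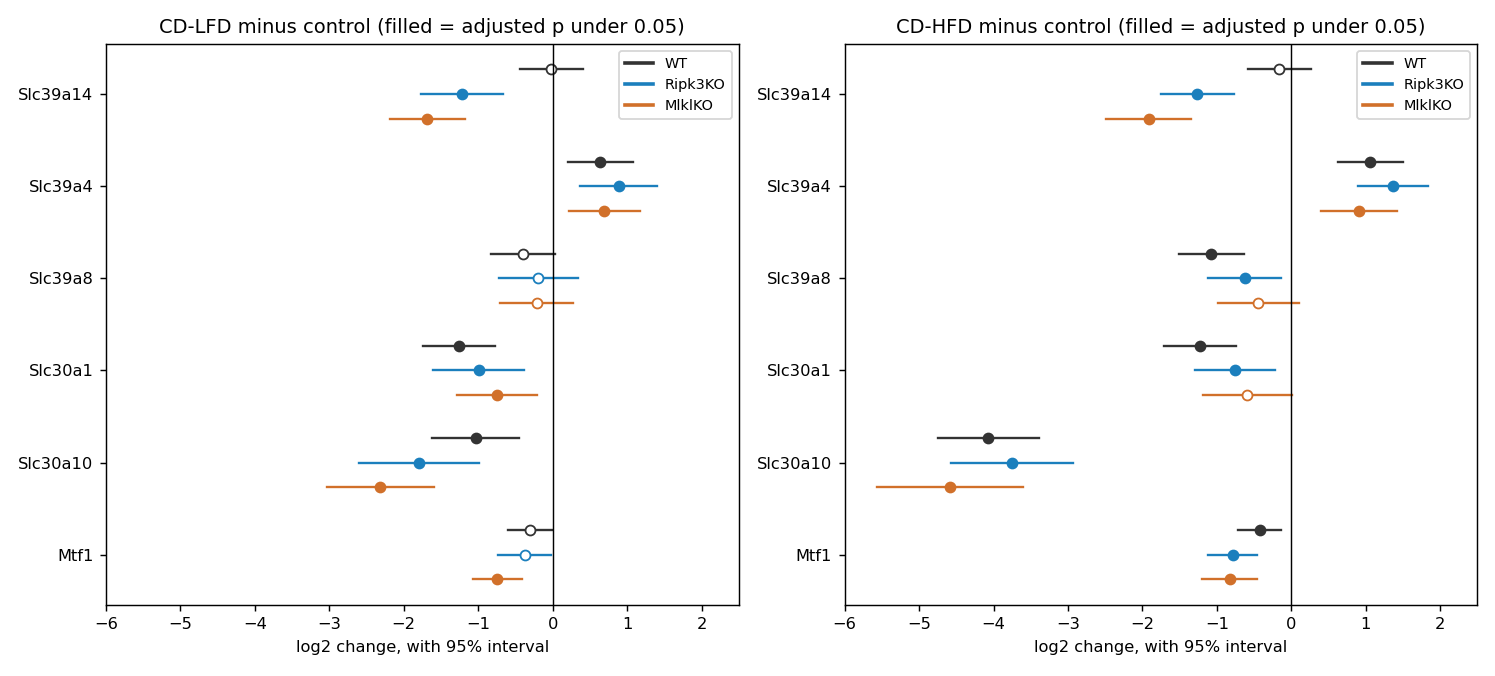
Log2 difference from the control diet of the 6 members tested there, for CD-LFD and CD-HFD in each genotype, with 95% intervals of the edgeR fit; filled points passed an adjusted p of 0.05. Slc39a4 lies above 0 and Slc30a10 below 0 in all 6 comparisons, and Slc39a14 below 0 in the 4 knockout comparisons, which are a description.

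The difference between genotypes in the change from control contains the genotype contrast on the control diet, on which the set was picked, so nothing is read from its values or counts. The log2 difference of Slc39a14 from control in MlklKO minus that in WT was -1.67 (SE 0.32) for CD-LFD and -1.76 (SE 0.34) for CD-HFD. In Ripk3KO the values were -1.20 (SE 0.34) and -1.10 (SE 0.32). For Slc30a10 in MlklKO on CD-LFD the value was -1.28 (SE 0.44). Of 24 such interactions of the members edgeR called 2, both for Slc39a14 in MlklKO. Interactions against control were called for 0.0269% of all genes in Ripk3KO and 8.45% in MlklKO on CD-LFD, and for 0.478% and 4.12% on CD-HFD. Of the 24 members' interactions 6 had an unadjusted p under 0.05, and DESeq2 called 3, the third being Slc39a14 in Ripk3KO on CD-HFD. Without both libraries of doubtful label the members again had 2 calls. Leaving out MlklKO control replicate 6, the low liver, gave 4, with Slc30a10 in MlklKO on CD-LFD and Slc39a14 in Ripk3KO on CD-HFD added.

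Of 21 further genes of the family, fixed as a list with earlier results known, 15 passed the filter on low counts. On the control diet Slc30a5, an exporter into the secretory pathway, was the 1 of 15 called in Ripk3KO, where 4.47% of all genes were, and was higher (log2 difference 1.25, adjusted p = 0.000627). In MlklKO 6 of the 15 were called, where 27.1% of all genes were, all higher, led by Slc39a10 (2.42, adjusted p = 1.15e-06), Slc30a5 (1.55, adjusted p = 4.33e-06), Slc39a6 (1.16, adjusted p = 0.0034) and Slc30a7 (0.92, adjusted p = 0.000424). Slc39a10 and Slc39a6 are plasma membrane importers of one subfamily, and Slc30a7 loads zinc into the Golgi. Slc39a10 held 46.8, 28.2, 20.5, 17.4, 27.3 and 5.37 CPM in MlklKO control livers in replicate order and 3.31 to 7.07 CPM in WT, so replicate 6 lay within the WT range and the other 5 above it. Slc30a5 held 22.7 to 55.7 CPM in WT and 38.9, 48.8, 118, 151, 80.0 and 111 CPM in Ripk3KO livers, where replicates 1 and 2 lay within the WT range, and 171, 112, 94.99, 111, 124 and 66.5 CPM in MlklKO livers, where replicate 6 was the lowest. These are the knockout livers that were the lowest of their groups in Mt1 and in the summed acute phase genes. Low is relative to the group here, since MlklKO replicate 6 still lay above every WT control liver in that sum. Against control on CD-HFD, 2 were called higher and 1 lower in WT, 2 and 4 in Ripk3KO, and 2 and 5 in MlklKO, where 47.7%, 46.3% and 45.2% of all genes were called in either direction. The largest there were Slc39a13 in WT (0.74, adjusted p = 0.000312) and Slc30a5 in Ripk3KO (-1.56, adjusted p = 5.25e-06) and MlklKO (-1.74, adjusted p = 6.66e-06). On CD-LFD 2 were called in WT, both lower, 2 were higher and 4 lower in Ripk3KO, and 1 was higher and 7 lower in MlklKO, where 27.7%, 24.1% and 37.9% of all genes were called. They were led by Slc30a4 in WT (-0.77, adjusted p = 0.0151), Slc39a7 in Ripk3KO (-1.72, adjusted p = 0.0424) and Slc39a10 in MlklKO (-2.23, adjusted p = 9.76e-06). From CD-LFD to CD-HFD, Slc39a6 rose in WT (1.03, adjusted p = 0.00734) and MlklKO (1.49, adjusted p = 0.00317), Slc39a3 rose in MlklKO (0.59, adjusted p = 0.00965), and none of the 15 was called in Ripk3KO by edgeR or DESeq2, with 1 (Slc39a2) at an unadjusted p under 0.05. Over all genes 21.1% were called there in WT, 23.7% in MlklKO and 8.83% in Ripk3KO.

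Several of these calls rested on few libraries or on the fit. Slc39a3 in MlklKO was lost without the library labelled MlklKO CD-HFD replicate 1 (0.37, adjusted p = 0.156), without both libraries of doubtful label (0.37, adjusted p = 0.159) and with no filter on low counts (0.57, adjusted p = 0.0784). Slc30a4 on CD-LFD in WT was lost without WT control replicate 2 (-0.62, adjusted p = 0.0671), by library size alone (-0.49, adjusted p = 0.102) and in a fit on the compared groups alone (-0.76, adjusted p = 0.0927). Slc39a7, which releases zinc from the endoplasmic reticulum, was lost on CD-LFD in Ripk3KO without any 1 of control replicates 3, 4, 5 and 6 (-1.64, adjusted p = 0.0699; -1.59, adjusted p = 0.0781; -1.74, adjusted p = 0.0514; -1.61, adjusted p = 0.0714) or of CD-LFD replicates 1 and 3 (-1.53, adjusted p = 0.135; -1.59, adjusted p = 0.206). It was also lost by library size alone (-1.40, adjusted p = 0.0776), with no filter on low counts (-1.70, adjusted p = 0.0685) and without both libraries of doubtful label (-1.74, adjusted p = 0.0526). With clock phase as a covariate Slc39a6 lost its call in WT between the choline-deficient diets (0.81, adjusted p = 0.164) and in MlklKO on control (0.98, adjusted p = 0.0513), the latter at 0.61, adjusted p = 0.294 among livers of the more common phase. Among livers of the more common phase alone, Slc30a5 in Ripk3KO on control was at 0.76, adjusted p = 0.283, and in a fit on the compared groups alone at 1.25, adjusted p = 0.107.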

How the data were processed

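RNA of about 25 mg of liver per sample was sequenced from directional libraries, per the labels' protocols. The authors deposited raw counts per Ensembl gene, with no normalization, for 44 libraries. FastQC, STAR, HTSeq, edgeR and limma and the build GRCm39 (mm39) are named in the submitters' processing notes, and the strand setting used in counting is not given in the sources used here. Of 35249 genes 34373 were matched to a symbol. Genes were kept by filterByExpr (minimum count 10), which left 14862, and TMM scaling gave factors between 0.799 and 1.34.

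The test was the quasi-likelihood F test of edgeR 4.0.16 (R 4.3.3, limma 3.58.1) over all 44 libraries with 1 mean per group, adjusted by Benjamini-Hochberg over all genes within each comparison, with a threshold of 0.05. "Called" means under it, and "lost" means no longer under it. DESeq2 1.42.0 was an alternative, as were RLE and library-size scaling, no filter, a replicate block, clock phase as a covariate, the more common clock phase only, the compared groups only and each library left out. Leaving out both libraries of doubtful label was added after seeing the data. On simulated data for CD-HFD against CD-LFD in WT (14862 genes, 200 changed), 83% of 2-fold and 99% of 4-fold changes were recovered. Of the calls 4.71% were false. The changed genes were drawn only from those of higher mean level, so the rates do not cover genes of low level or the smaller knockout groups.

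The members, gene lists and naming rule were chosen with earlier results of these data known. The rule named the 8 members, up to 4 called genes per comparison with the largest log2 difference among 21 other zinc genes, the 6 transcripts most correlated with Mt1 and with Slc39a4, and Ripk3 and Mlkl. The largest gap among the log2 ratios of Arntl to Dbp that left at least 5 libraries on each side set the clock phase. No 2 libraries of a group were duplicates (93 pairs, with 6.59 or more chi-square per degree of freedom). Total counts of 2476268 to 88204703 set the precision of low genes, and floors of 3 counts cover counting error only, whereas the 95% intervals of the edgeR fit include the spread between libraries. Promoter windows came from RefSeq (GRCm38.p6) and transcript starts from GENCODE M21, a build other than that of the counts, so no member coordinates in the counts' build are given.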

Additional observations from a re-analysis of the deposited data

Results flagged for a closer look

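MlklKO control replicate 6 lay far from the other 5 livers of its group in 4 members: at 24.2 CPM of Mt1, 0.447 of Mt2, 351 of Slc39a14 and 38.0 CPM of Slc30a10. Ripk3KO CD-HFD replicate 1 lay far below its group in Slc30a1, at 23.0 CPM. Single libraries were compared with their group for 8 genes in 7 groups, 56 sets in all, of which 5 stood out. The rule's chance rate of about 1 in 20 is for unrelated sets, and 4 of the 5 came from MlklKO control replicate 6. Mt1 and Mt2 on the control diet also chose the set, so nothing is read from this count. Ripk3KO control replicates 1 and 2, which were low in Mt1, Mt2 and Slc39a14, are not found by a rule for single libraries.

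The difference from control in MlklKO minus that in WT contains the genotype contrast on the control diet, on which the members were picked. For Slc39a14 it is therefore a description, with an interaction of -1.67 on CD-LFD and -1.76 on CD-HFD. Slc39a10, a plasma membrane zinc importer outside the members, had interactions of -2.34, adjusted p = 0.00225 on CD-LFD and -1.97, adjusted p = 0.0212 on CD-HFD. Both use the MlklKO control level, where replicate 6 held 5.37 CPM of Slc39a10, within the WT range of 3.31 to 7.07 CPM, and the other 5 livers 17.4 to 46.8 CPM. The CD-HFD call was lost without MlklKO CD-HFD replicate 2 (-1.79, adjusted p = 0.085), among livers of the more common clock phase (-1.45, adjusted p = 0.209), in a fit on the compared groups (-2.02, adjusted p = 0.0629) and without both libraries of doubtful label (-1.94, adjusted p = 0.0503).

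Slc30a5, an exporter into the secretory pathway, had interactions in MlklKO of -1.32, adjusted p = 0.0122 on CD-LFD and -1.62, adjusted p = 0.00883 on CD-HFD, the latter -1.13, adjusted p = 0.125 among livers of the more common phase. In Ripk3KO on CD-HFD it was -1.44, adjusted p = 0.0361. That call was lost without any 1 of 15 libraries (WT control replicates 1, 3, 5 and 6, WT CD-HFD replicates 1, 2, 3 and 5, Ripk3KO control replicates 3, 4 and 6 and Ripk3KO CD-HFD replicates 1, 2, 3 and 5), with the highest adjusted p without Ripk3KO control replicate 4 (-1.24, adjusted p = 0.0982). It was also lost with clock phase as a covariate (-1.33, adjusted p = 0.0849), among livers of the more common phase (-0.91, adjusted p = 0.285) and in a fit on the compared groups (-1.48, adjusted p = 0.124). Ripk3KO control replicates 1 and 2 lay within the WT range of Slc30a5 at 38.9 and 48.8 CPM, and the other 4 at 80.0 to 151 CPM. MlklKO control replicate 6 was the lowest of its group, at 66.5 CPM.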

How the results depend on the processing

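The members' calls numbered 5 of 24 between CD-HFD and CD-LFD, 2 of 32 between knockout and WT on the choline-deficient diets, 27 of 36 against control, 0 of 16 and 2 of 24 for the interactions between the choline-deficient diets and against control. With clock phase as a covariate the first of these was 3 and the second 0, and in fits on the compared groups alone they were 8 and 6. The calls against control numbered 21 by library size alone and 25 with no filter. All these counts against control include Slc39a14 in the knockouts, from which nothing is read. The interactions against control gave 3 calls by library size and with no filter (Slc30a10 in MlklKO on CD-LFD added) and by DESeq2. Livers of the more common clock phase alone gave no value where WT on CD-LFD enters. Leaving out 1 library gave 3 to 5, 1 to 3, 25 to 28, 0 to 0 and 2 to 4 calls for the members, in the same order, with 3 in the first without WT CD-LFD replicate 3 or WT CD-HFD replicate 6, and 4 in the last without MlklKO control replicate 6.

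Replicate numbers did not pair the samples: of 146 same-numbered pairs 42 correlated over 0.1 (median -0.0114), and 13 of 44 libraries correlated best with their own number, a hint from the data and not the design. With a replicate block the members had 5, 2, 27, 0 and 3 calls.

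By library size alone the direction turned for Mtf1 on CD-HFD in WT (0.076), Slc39a1 in Ripk3KO (0.067) and Slc30a6 in MlklKO (0.056). With clock phase as a covariate it turned on CD-LFD for Slc30a10 in Ripk3KO (0.065) and MlklKO (0.16) and for Mt2 in MlklKO (-0.057). Without MlklKO CD-HFD replicate 2, Mt2 in MlklKO on CD-HFD was at -0.21, the lowest of the values without 1 library, which reached 1.18. The cause was not tested. Of 1041 fits of 96 single results without 1 library, 913 kept direction and side of the threshold, 127 lost the call and 1 turned. Of 845 other fits, 757 kept both, 76 lost the call, 6 gained it and 6 turned. Mt2 was under the floor of 3 counts in most WT control livers. The part of depth in this, and of the exon bases that Mt2 shares with Gm45774, was not tested.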

Other observations

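Lists of genes that respond to the same hormones and stresses as metallothioneins were counted on the choline-deficient diets. Of 10 glucocorticoid-responsive genes, 4 were called higher on CD-HFD than on CD-LFD in WT and 1 in each knockout, with median log2 differences of 0.22 in WT, -0.16 in Ripk3KO and -0.50 in MlklKO, where 21.1%, 8.83% and 23.7% of all genes were called in either direction. On CD-LFD 5 of them were higher in MlklKO than in WT (median 0.98) and 1 in Ripk3KO (0.26), where 2.56% and 1.1% of all genes were called. In the same comparisons 7 of 13 clock genes were higher and 1 lower in MlklKO, and 4 were higher and 1 lower in Ripk3KO, and clock phase and genotype cannot be told apart there. Per1 is in both lists. Of 8 NRF2 targets, 5 were called higher on CD-LFD and 4 higher and 2 lower on CD-HFD than on control in WT, with medians of 0.82 and 0.90, where 27.7% and 47.7% of all genes were called. In Ripk3KO 3 were higher on CD-LFD and 4 higher and 2 lower on CD-HFD (medians 0.02 and 0.31), where 24.1% and 46.3% of all genes were called. In MlklKO 4 were higher and 3 lower on CD-LFD and 3 higher and 3 lower on CD-HFD (medians -0.06 and 0.14), where 37.9% and 45.2% were. The change on CD-LFD minus that in WT was called lower in MlklKO for 4 of the 8 (median -1.40), where 8.45% of all genes were called, and on CD-HFD for 1 (-0.80), where 4.12% were. In Ripk3KO edgeR called 0 on both diets (medians -0.49 and -0.30), with 1 on each at an unadjusted p under 0.05, where 0.0269% and 0.478% of all genes were called.

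Gm45774, annotated opposite Mt2, had group medians of 9.69 CPM in MlklKO control and 1.07 CPM in Ripk3KO control livers and of 0 to 0.552 CPM in the other 7 groups, up to 17.4 CPM in 1 MlklKO control liver.

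Stellate cell markers, 5 genes of the cells that form scar tissue in liver, summed to 199 to 230.2 CPM on control, 241 to 408 on CD-LFD and 494 to 803 CPM on CD-HFD in WT livers. Cholangiocyte markers, 4 genes of bile duct cells, summed to 15.4 to 34.7, 21.5 to 53.7 and 78.7 to 117 CPM. Their part in the members' levels was not tested.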
